A study of Mus musculus with 3 samples.

Results

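The window studied here is the stretch of mouse chromosome 11 from 100640000 to 100815000 (mm9) that holds 3 neighbouring genes of the STAT family, Stat5b, Stat5a and Stat3. It is defined by its coordinates, and all reads that lie inside it were used: 1888 of 12075963 in the STAT3-deficient H3K4me3 library, 1882 of 12281399 in the wild-type H3K4me3 library, and 3166 of 10127075 for phospho-STAT3 in wild-type cells. Per 1000000 reads of the library these are 156 for STAT3-deficient H3K4me3, 153 for wild-type H3K4me3 and 313 for phospho-STAT3. The deficient cells were Stat3fl/fl FoxP3-GFP, CD4-Cre, in which the Cre recombinase is driven by the CD4 promoter and acts in T cells. Wild-type cells were Stat3fl/fl FoxP3-GFP without Cre, so both genotypes carried the conditional Stat3 allele and FoxP3-GFP. Naive T cells (CD4+CD44-CD62L+) were sorted and stimulated through CD3 and CD28 for 72 h. The cultures held TGF-b at 2.5 ng/ml and IL-6 at 10 ng/ml and antibodies that blocked IL-2, IL-4 and IFN-g, and a last exposure to IL-6 lasted 1 h. The number of animals behind each library is not known here. The mark H3K4me3, found at active gene starts, was precipitated from both genotypes, and STAT3 phosphorylated on serine 727 from wild-type cells. Every group was 1 library, so no value below has a replicate check, and no p-value between genotypes can be given.

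STAT proteins carry cytokine signals to the nucleus. A cytokine receptor activates its JAK kinases, these phosphorylate the STAT, and the STAT dimer moves into the nucleus and binds DNA at short palindromes with TTC and GAA arms. STAT3 is the factor that IL-6 activates, it is needed for the Th17 state, and it is known to act on its own gene. STAT5A and STAT5B are close relatives that carry the IL-2 signal in T cells and are known to restrain IL-17 production.

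RefSeq lists Stat5b, Stat5a and Stat3 as direct neighbours in this order, with the protein-coding genes Ghdc on the Stat5b side and Cavin1 beyond the Stat3 start. The non-coding gene Gm46295 follows Stat3 in the same list. On mm9, Stat5a lies near 100720700 to 100745000 on chromosome 11. Stat3 lies near 100748400 to 100800800 and is read from the high coordinate to the low one, so its start is near 100800800. Stat5b occupies the side of the window before Stat5a. An exon annotation of mm9 was not used here, so exons, UTRs and the exact start of Stat5b are not placed, and the T cell, B cell and myeloid marker genes and other genes of the pathway were not placed either.

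The 250 bases before a gene start are given for 3 of the 5 starts that RefSeq lists for these genes (build GRCm38.p6, 5′ to 3′). The Stat3 sequence is shown because the strongest phospho-STAT3 site of the window lies before this start. On mm9 the highest 200 bp of that site were centred 300 bp before the position given for the start, which is approximate. By that position their centre lies beyond the 250 bases shown, while the site as called, from 100800850 to 100801399, overlaps them in part. The capitals of the Stat3 sequence mark a match to TTNNNNAA, a looser palindrome that STAT dimers can bind. The Stat5a and Stat5b sequences are shown because they share stretches of sequence, which are in capitals.
Stat3, chr11:100939541-100939790 of GRCm38.p6, minus strand: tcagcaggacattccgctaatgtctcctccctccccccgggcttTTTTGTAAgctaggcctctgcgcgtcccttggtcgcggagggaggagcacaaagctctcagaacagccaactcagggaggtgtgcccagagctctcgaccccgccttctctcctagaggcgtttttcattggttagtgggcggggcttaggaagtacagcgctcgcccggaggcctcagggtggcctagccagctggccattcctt
Stat5a, chr11:100860234-100860483 of GRCm38.p6, plus strand: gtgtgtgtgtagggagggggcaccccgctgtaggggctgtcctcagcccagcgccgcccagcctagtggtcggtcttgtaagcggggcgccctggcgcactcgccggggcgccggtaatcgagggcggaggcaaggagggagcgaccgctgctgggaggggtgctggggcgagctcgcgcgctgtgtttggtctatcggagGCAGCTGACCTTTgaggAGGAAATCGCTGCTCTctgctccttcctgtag
Stat5b, chr11:100822571-100822820 of GRCm38.p6, minus strand: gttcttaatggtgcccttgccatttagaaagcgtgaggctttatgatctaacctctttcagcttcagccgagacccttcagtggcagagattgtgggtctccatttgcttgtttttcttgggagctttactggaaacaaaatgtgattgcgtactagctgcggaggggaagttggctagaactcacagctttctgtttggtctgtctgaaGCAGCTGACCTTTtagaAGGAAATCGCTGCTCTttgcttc

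The Stat5a and Stat5b sequences shared a run of 16 bases, AGGAAATCGCTGCTCT, and before it a run of 13 bases, GCAGCTGACCTTT. The longer run began 32 bases before this Stat5a start and 23 bases before this Stat5b start, and no other gene among the 32851 start windows of the RefSeq table held it. The shorter run was in 3 windows, those of Stat5a, Stat5b and Trem2. The motif TTCNNNGAA, searched on both strands, was in 7.02% of the 32851 windows and in 0 of the 5 windows of these genes. TTCNNNNGAA was likewise in 0 of the 5, against 5.85% of all windows. TTNNNNAA, which reads the same on both strands, was in 57.7% of all windows, so its presence before Stat3 is common. The match before Stat3 began at position -206 from the start. These letters describe the windows only, and mm9 sites were not matched to them base by base. By the positions given, the called phospho-STAT3 site before Stat3 overlaps the Stat3 window in part, while the centre of its highest 200 bp lies outside that window. Whether the TTNNNNAA match lies within the site was not determined.

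The deposited reads were first used to check the targeted gene. The STAT3-deficient library held 0 H3K4me3 reads over 3657 bp inside Stat3, from 100753872 to 100757528 on chromosome 11, which lies 5472 bp from the gene end and 43272 bp from the gene start. The wild-type H3K4me3 library held 28 reads there. The wild-type phospho-STAT3 library held 73, so reads could be placed in this interval. From reads outside H3K4me3 regions, 27.0 STAT3-deficient reads would be expected (95% Poisson interval of the wild-type count, 18.0 to 39.1). A count of 0 allows up to 3 reads, that is 11.1% of the expected number, or 16.7% at the low end of the interval. The interval was picked for being empty, so its emptiness is a description and not a test.

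Next to it, the STAT3-deficient reads resumed on both sides at close to the wild-type number. The flank of equal length towards Stat5a held 31 STAT3-deficient and 43 wild-type H3K4me3 reads. The flank towards the Stat3 start held 39 STAT3-deficient and 33 wild-type reads. The other stretches of at least 1000 bp without STAT3-deficient reads in the window numbered 4, spanned 1010 to 1324 bp and held 2 to 7 wild-type reads each. Wild-type H3K4me3 reads left 8 such stretches, the longest of 1316 bp, and phospho-STAT3 reads left 4, the longest of 1500 bp. The interval inside Stat3 was thus more than double the length of any other empty stretch of this window.

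**Figure D1:**
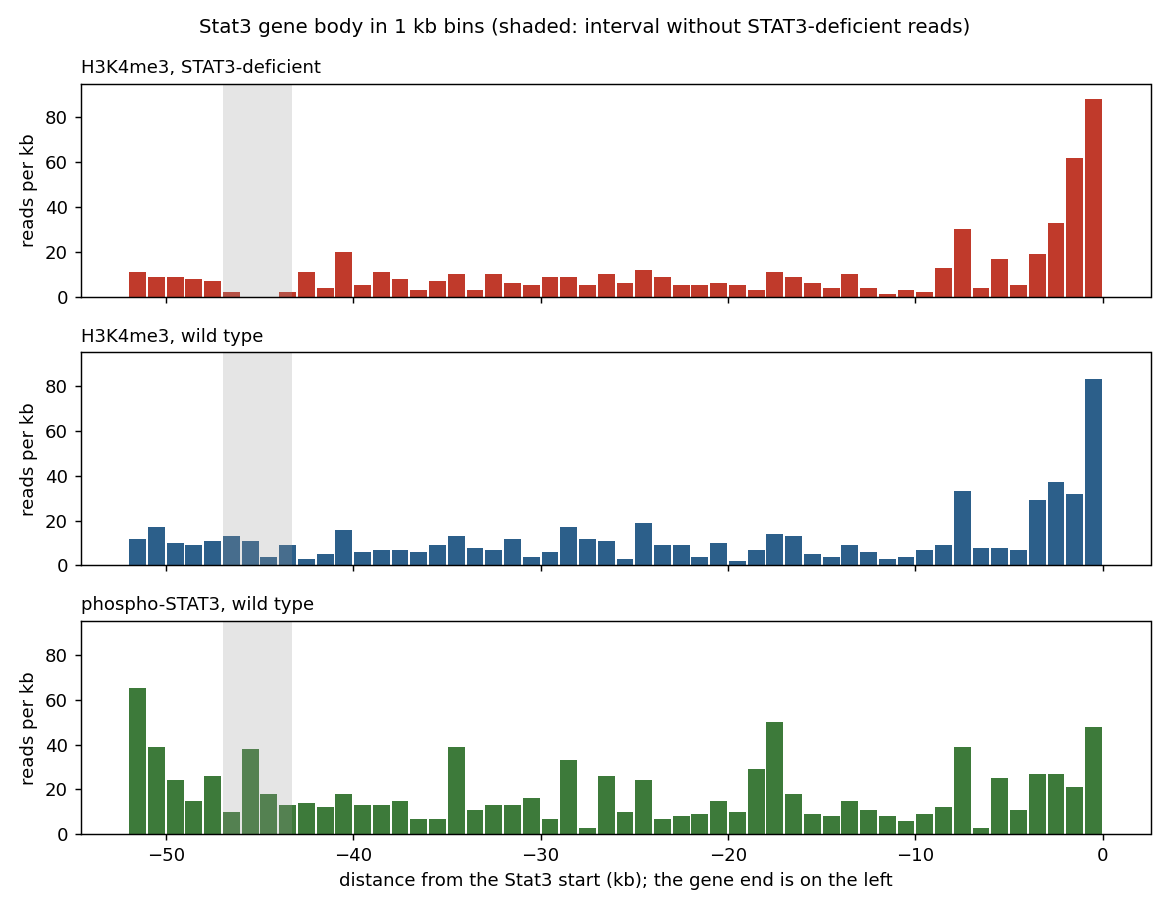
Reads per 1 kb bin along Stat3 for the STAT3-deficient H3K4me3, wild-type H3K4me3 and wild-type phospho-STAT3 libraries, by distance from the gene start in kb. Both bins that lie wholly in the shaded interval hold 0 STAT3-deficient reads, against 15 wild-type H3K4me3 and 56 phospho-STAT3 reads, while bins on either side hold reads in every library.

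The rest of the Stat3 body held STAT3-deficient and wild-type reads in numbers whose ratio depended on the scaling. Outside H3K4me3 regions and without the empty interval, 44.5 kb of Stat3 held 339 STAT3-deficient and 392 wild-type reads, a ratio of 0.896 (exact 95% interval 0.772 to 1.04) after scaling by reads outside regions. Scaling by H3K4me3 regions instead gave 0.704 (0.607 to 0.817), a choice that puts reads outside regions lower throughout the genome. Of 52 whole 1 kb bins of the gene, 2 held no STAT3-deficient read, both of them inside the empty interval, and 0 held no wild-type H3K4me3 read.

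H3K4me3 marked 6 regions of the window, and at none of them did the genotypes differ by the size rule. Regions are stretches of 200 bp windows with at least 12 reads of both H3K4me3 libraries together, and a region with at least 50 reads is called marked. A region passes the size rule when it differs at least 2-fold and its exact (Clopper-Pearson) 95% interval leaves out no change, after the median ratio of all 10971 marked regions is set to 0. All 6 regions were marked and 0 of 6 passed the rule, against 2.17% of marked regions in the genome (1.01% past it upwards and 1.16% downwards in STAT3-deficient cells). Intervals cover counting error only, and PCR reads without molecular identifiers are not independent molecules.

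The Stat3 start carried a broad region of 3400 bp, from 100797400 to 100800799, which ends at the gene start and runs into the gene. It held 194 reads in the STAT3-deficient and 173 in the wild-type library. The log2 ratio was -0.13 (-0.43 to 0.17), and it turned to 0.19 (-0.11 to 0.49) by library totals. Of all marked regions 95.9% held fewer reads, while 48.1% held fewer reads per kb.

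The mark lay on the gene side of the Stat3 start in both genotypes. The first 4 kb of the gene held 202 STAT3-deficient and 181 wild-type H3K4me3 reads, and the 4 kb before the start held 16 STAT3-deficient and 28 wild-type reads. Within the first kb the counts were 88 STAT3-deficient and 83 wild-type reads, with a log2 ratio of -0.21 (-0.66 to 0.24). In the second kb they were 62 STAT3-deficient and 32 wild-type reads, a log2 ratio of 0.66 (0.02 to 1.32), or 0.98 (0.34 to 1.64) by library totals. The third kb held 33 STAT3-deficient and 37 wild-type reads, and the fourth 19 STAT3-deficient and 29 wild-type reads, a log2 ratio of -0.91 (-1.82 to -0.02) that by library totals was -0.59 (-1.50 to 0.30). The interval leaves out no change by both scalings in the second kb and by marked regions only in the fourth. The bins were looked at after the profile had been seen.

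**Figure D2:**
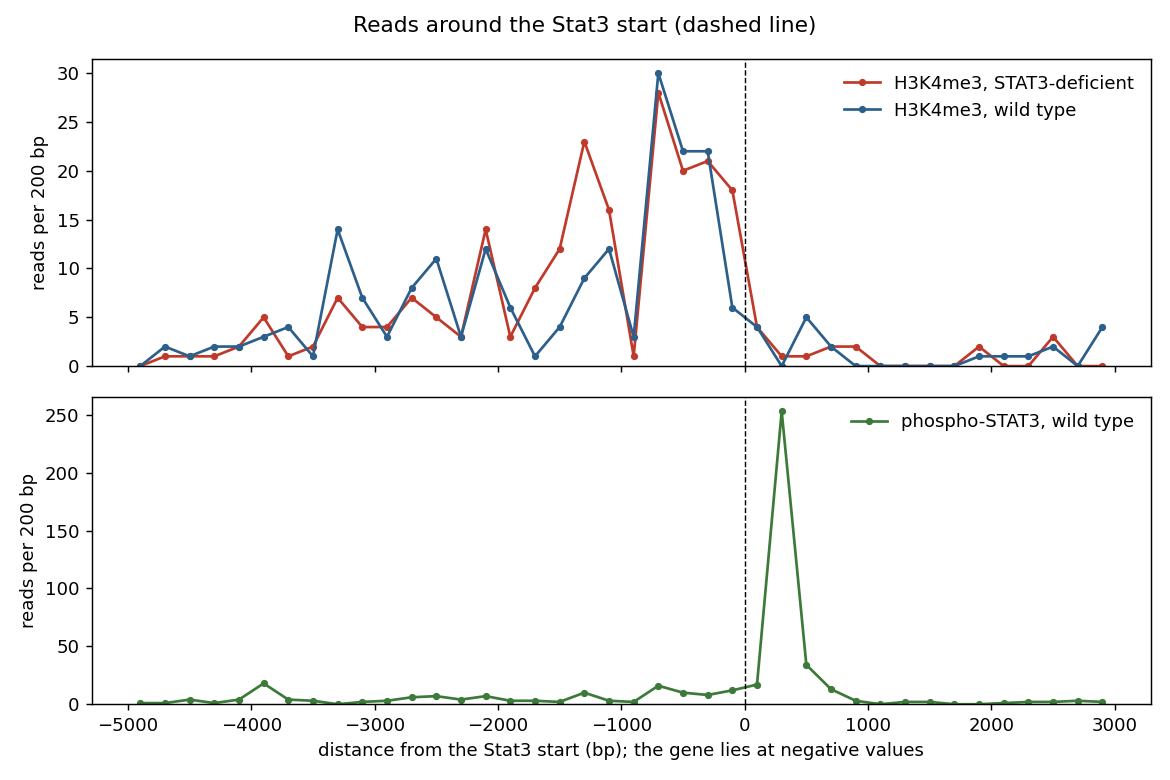
Reads per 200 bp around the Stat3 start (dashed line), with the gene at negative distances. The upper panel shows H3K4me3 in STAT3-deficient and wild-type cells, and the lower panel phospho-STAT3, whose highest bin holds 253 reads just before the start, where the H3K4me3 libraries hold 1 (STAT3-deficient) and 0 (wild type).

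A further marked region lay inside Stat3, from 100792800 to 100793599. It held 25 STAT3-deficient and 28 wild-type reads, a log2 ratio of -0.46 (-1.30 to 0.37) or -0.14 (-0.98 to 0.69) by library totals, and was among the weakest of the genome, with 3.12% of marked regions holding fewer reads. It was the 1 region of Stat3 that also held a phospho-STAT3 site.

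A region of 3200 bp at the Stat5a start ran from 100720800 to 100723999, so it began just inside the gene, whose start is given near 100720700. It held 220 reads in the STAT3-deficient and 162 in the wild-type library. Over both libraries together these were the most reads of any region in the window and more than in 96.4% of marked regions, while in the wild-type library alone the Stat3 start held more. The log2 ratio was 0.15 (-0.15 to 0.45), and by library totals it was 0.47 (0.17 to 0.77).

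Before Stat5a, on the side of Stat5b, there were 3 regions. The one from 100709800 to 100711599 held 137 STAT3-deficient and 80 wild-type reads, 1.39-fold higher in the STAT3-deficient library (1.05 to 1.86). Its log2 ratio of 0.48 (0.07 to 0.90) exceeded that of 93.3% of marked regions. With this scaling, by marked regions, it was the only one of the 6 with an interval above no change, as were 5.83% of marked regions, and it fell short of the size rule. By library totals its log2 ratio was 0.80 (0.39 to 1.22), and 3 of the 6 regions had intervals above no change, as did 29.3% of marked regions. The region from 100682400 to 100684199 held 146 STAT3-deficient and 105 wild-type reads, with the log2 ratio at 0.18 (-0.19 to 0.56), or 0.50 (0.13 to 0.88) by library totals. Beside it, a shorter region from 100681000 to 100681599, held 25 reads in each H3K4me3 library, with a log2 ratio of -0.30 (-1.16 to 0.56). RefSeq lists more than 1 start for Stat5b, and which of them a region covers was not determined on mm9.

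Summed over the 6 regions there were 747 STAT3-deficient and 573 wild-type reads, a log2 ratio of 0.09 (-0.07 to 0.25). The ratio was above 0 in 3 regions and below 0 in the other 3. By library totals, which move the median of all marked regions by 0.32 log2 units, it was above 0 in 5 of the 6. The median log2 ratio of the 6 regions was 0.01, against 0 for all marked regions, where the scaling puts it.

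**Figure D3:**
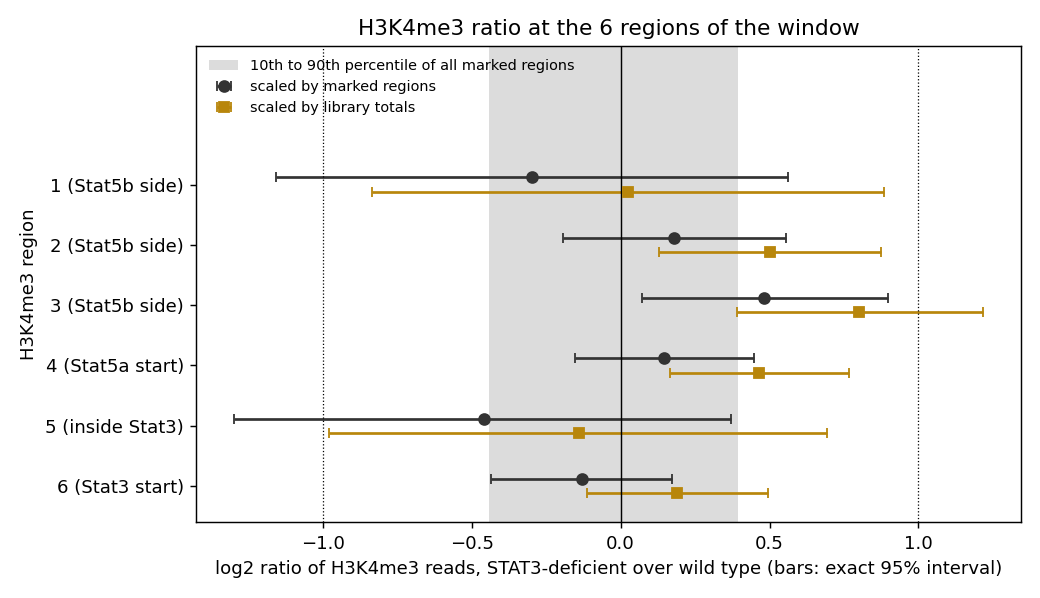
Log2 ratio of H3K4me3 reads, STAT3-deficient over wild type, at the 6 regions of the window, with exact 95% intervals under both scalings. The grey band spans the 10th to 90th percentile of all marked regions (-0.44 to 0.40), dotted lines mark a 2-fold difference, and only region 3 on the Stat5b side has an interval above 0 when scaled by marked regions.

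Phospho-STAT3 was dense over the window. It showed 14 sites, that is 8.0 per 100 kb against 1.03 per 100 kb over the genome, where 27060 sites were called. A site is a run of 200 bp windows that each hold 10 or more reads from both strands and exceed the density of the genome and of the surrounding 10 kb at a Poisson p of 1e-08. The 10 kb include the reads of the site itself, which raises the local expectation. Of the 14, 5 lay in Stat3, 7 before Stat5a on the Stat5b side and 2 before the Stat3 start, and none in Stat5a itself as placed here. None of the 14 was called by the same rule in the STAT3-deficient or the wild-type H3K4me3 library. Input chromatin, and phospho-STAT3 in STAT3-deficient cells, were not analysed here.

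**Figure D4:**
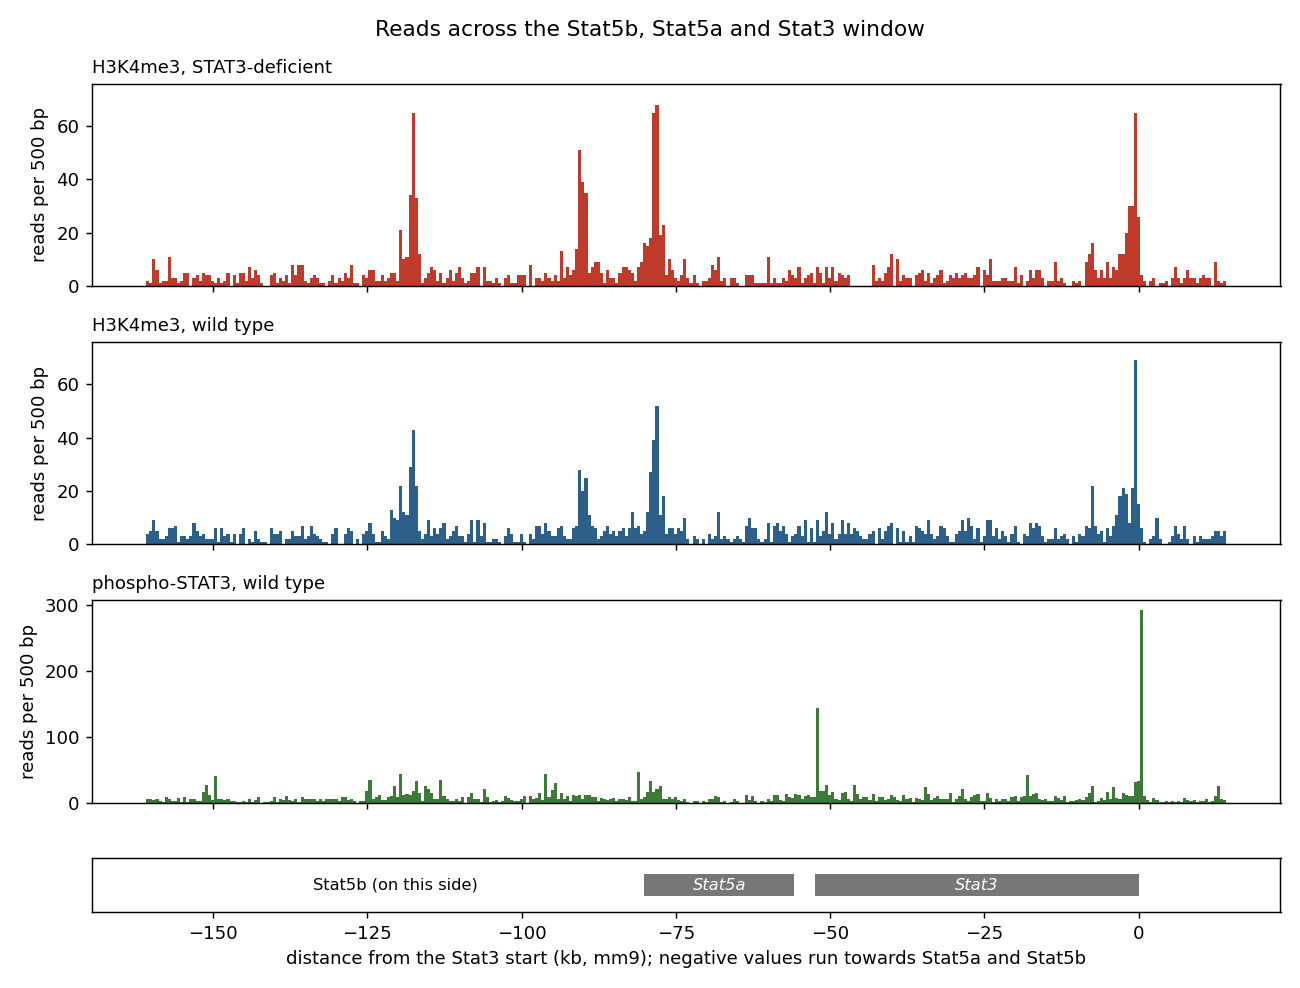
Reads per 500 bp over the window in the STAT3-deficient H3K4me3, wild-type H3K4me3 and wild-type phospho-STAT3 libraries, by distance from the Stat3 start, with Stat5a and Stat3 drawn to scale. H3K4me3 stands up at the Stat3 and Stat5a starts and at 2 places on the Stat5b side in both genotypes, while phospho-STAT3 peaks just before the Stat3 start and at the Stat3 end.

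The strongest site of the window was the one before the Stat3 start, from 100800850 to 100801399, and it began 50 bp beyond the H3K4me3 region. Its highest 200 bp held 252 reads (exact Poisson 95% interval 222 to 285), 26.6-fold over the local expectation of 9.48, and was centred 300 bp before the start. The site's own reads are part of that expectation, and with the local density taken over 50 kb the fold was 65.1. The excess over the 10 kb expectation, 243 reads, ranked first among the 27060 sites, ahead of 235 reads at a site on chromosome 17. That site had more reads in its highest window, 382 of the 400 that 1 read per position and strand allows, against a local expectation of 147. By reads in the highest window alone, the site before Stat3 ranked 3rd. It ranked second when reads were not shifted or when the local density was taken over 50 kb. Of the 300 reads of the whole site, 150 were on each strand, and the 5′ ends of minus-strand reads lay a median of 115 bp beyond those of plus-strand reads. Up to 91 of 100 neighbouring positions on 1 strand held a read, and since a position and strand could hold only 1 read, its height is capped.

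H3K4me3 reads were close in number around this site in the 2 genotypes. Within 1 kb of its centre there were 93 STAT3-deficient and 88 wild-type H3K4me3 reads. Most of these reads lay inside the gene, in the region of the Stat3 start already described, so they are not a separate result. The log2 ratio of the 93 to the 88 reads was -0.22 (-0.65 to 0.22) when scaled by marked regions and 0.13 (-0.31 to 0.57) when scaled by reads outside regions. Over the 200 bp with most phospho-STAT3 reads, H3K4me3 was near absent in both genotypes.

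A second strong site lay at the other end of Stat3, from 100748550 to 100748999, and its highest 200 bp were centred 350 bp inside the position given for the gene end. They held 123 reads (exact Poisson 95% interval 102 to 147), 16.9-fold over local expectation, and its excess of 116 reads ranked 95th of 27060. There was no H3K4me3 region at this site, and 16 reads lay within 1 kb in each H3K4me3 library. Its strands were offset by 118 bp, much as at the site before the Stat3 start.

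The remaining 12 sites had 16 to 36 reads in the highest 200 bp and 4.85-fold to 10.7-fold over local expectation, and ranked from 4313th to 22001st. Excess in the top 25% of all sites, at least 26.1 reads, was reached by 5 of the 14. Beside the pair described, these were the site inside Stat3 from 100782650 to 100782999, with 30 reads in its highest window, and 2 on the Stat5b side. Of those 2, the site from 100719650 to 100719999 had 36 reads in its highest window and lay just before the position given for the Stat5a start. The other, from 100651100 to 100651499, had 33. Before the Stat3 start there was also the weakest site of the window, from 100813700 to 100813899, with 16 reads in its highest window.

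The weaker sites of the Stat5b side and of Stat3 had similar heights. On the Stat5b side there were 5, and the highest windows held 28 reads in the site from 100649350 to 100649699, 29 from 100675850 to 100676249, 30 from 100681000 to 100681249, 24 from 100687550 to 100687799 and 27 from 100704650 to 100704999. In Stat3 there were 3, with 23 reads from 100754800 to 100755099, 19 from 100766300 to 100766599 and 22 from 100792850 to 100793199. At these heights a Poisson interval is wide, for instance 11.4 to 29.7 for 19 reads, so most of these sites cannot be ranked against each other. The median excess of the 14 sites was 24.3 reads, against 18.8 over all sites.

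Most sites of the window, like most of the genome, did not overlap the mark. Of the 14 sites, 2 overlapped an H3K4me3 region, against 26.8% of all sites, a difference that was not tested. The other 12 did not, but the site before the Stat3 start began only 50 bp beyond a region. Seen from the mark, 2 of the 6 regions held a site, against 52.5% of marked regions in the genome. The regions with a site were the 2 shortest of the 6.

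**Figure D5:**
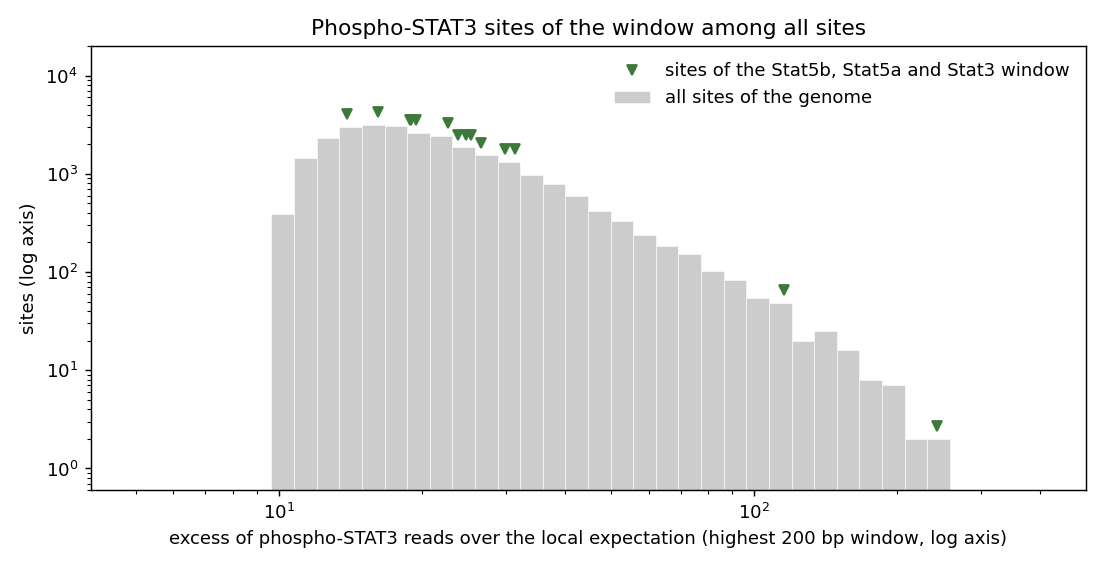
Excess of phospho-STAT3 reads over local expectation for all 27060 sites (grey bars, both axes logarithmic). Triangles, set just above the bars at each excess, are the 14 sites of the window, of which the site at the Stat3 end (116 reads) and that before the Stat3 start (243 reads) lie far to the right of the other 12.

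One site fell inside the interval that lacked STAT3-deficient reads. It ran from 100754800 to 100755099 and held 27 of the 73 phospho-STAT3 reads of the interval, with 23 in its highest window, 5.61-fold over local expectation. Within 1 kb of it there were 0 STAT3-deficient and 18 wild-type H3K4me3 reads. Scaled by reads outside regions, the ratio of H3K4me3 reads within 1 kb had an interval below no change at 2 of the 14 sites, against 1.73% of all sites, and above it at 0, against 11.2%. One of the 2 was the site just described, in the interval picked for being empty. At the other, from 100687550 to 100687799 on the Stat5b side, the counts were 11 STAT3-deficient and 25 wild-type reads, a log2 ratio of -1.13 (-2.30 to -0.06). Scaled by marked regions, intervals below no change were found at 4 of the 14 sites, the same site of the empty interval included, against 7.03% of all sites.

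Phospho-STAT3 reads were also raised between the called sites. Local rises below the site threshold and reads beside a site stay in these counts and were not separated from an even rise. For instance, a 500 bp bin outside the sites, at -94.55 kb from the Stat3 start on the Stat5b side, held 29 phospho-STAT3 reads. Outside regions and sites, and per 10000000 reads of the library, the Stat3 body without the empty interval held 15.0 phospho-STAT3 reads per kb and 7.12 wild-type H3K4me3 reads per kb, a ratio of 2.10 (1.85 to 2.39). Stat5a held 8.84 phospho-STAT3 and 6.41 wild-type H3K4me3 reads per kb, a ratio of 1.38 (1.11 to 1.71). The ratio was 2.62 (1.69 to 4.15) over the 3.40 kb between Stat5a and Stat3, with 19.5 phospho-STAT3 and 7.43 wild-type H3K4me3 reads per kb. The Stat5b side had a ratio of 1.88 (1.69 to 2.09), and the stretch before the Stat3 start 1.67 (1.24 to 2.25). Over the genome the same ratio was 0.942. The ratio was thus higher over Stat3 than over Stat5a, with intervals that do not overlap. The intervals of the other stretches of the window, the Stat5b side included, overlapped that of Stat3. All these intervals cover counting error only, and the stretches were chosen after the data were seen. The wild-type H3K4me3 library stood above its genome level too, at 7.12 reads per kb over Stat3 and 6.41 over Stat5a against 3.53 over the genome.

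The mismatch code of the reads gave almost no sign of non-reference sequence in the window. A position was kept when at least 3 reads with different starts, and at least 30% of its reads, differed from the reference in the same way. There was 1 such position, 100800208 on chromosome 11, 592 bp into Stat3. It differed in 0 of 3 STAT3-deficient H3K4me3 reads (Wilson 95% interval 0 to 56.1%), in 3 of 6 wild-type H3K4me3 reads (18.8 to 81.2%) and in the 1 phospho-STAT3 read. The nearest positions outside were at 100622977 and 101004910. Over the 2 Mb that include the window there were 45 positions, at which 90.5% of STAT3-deficient H3K4me3 reads (80.7 to 95.6), 86.9% of wild-type H3K4me3 reads (76.2 to 93.2) and 93.7% of phospho-STAT3 reads (84.8 to 97.5) differed from the reference. Positions were kept because their reads differed, so high shares follow at least in part from the rule. Reads at linked positions are not independent, which these intervals leave out. Such positions can be seen only where reads overlap, so at this depth their scarcity does not show that the window matches the reference.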

How the data were processed

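Chromatin immunoprecipitation followed by sequencing was available as 3 deposited files of aligned reads, 1 line per read of 25 bases, with position, strand and a mismatch code. The authors used build mm9 and SICER, per the submitters' processing notes, and the aligner and any version are not stated here. The score column deposited by the authors was 0 in every line, and repeated reads at the same position and strand were absent. Coordinates are printed as in the files, and whether these count from 0 or 1 was not settled.

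Reads were moved 75 bp towards the fragment centre and counted. H3K4me3 regions came from the pooled H3K4me3 reads of both genotypes (200 bp windows, Poisson p of 1e-05, a mappable genome share of 0.8, windows within 600 bp joined, at least 2 windows), and phospho-STAT3 sites on the phospho-STAT3 library (steps of 50 bp), over the autosomes and X. Ratios have exact Clopper-Pearson, counts exact Poisson and shares Wilson 95% intervals, which cover counting error only. A count of 0 was given a limit of 3 reads. The size rule and the site caller were tested on simulated data, the site caller on an even background, and the region caller was not tested. Gene positions were taken as given with the window, and the members, lists and rules were chosen with earlier results of these data known. The text accounts for every region and site of the window. Because no annotation of mm9 was at hand, the preset marker and pathway lists were not run. Promoter sequences are from RefSeq, build GRCm38.p6, matched by symbol (3 of 3 genes). The TTNNNNAA motif, the runs shared by Stat5a and Stat5b, the 1 kb bins and the densities between sites were chosen after the data were seen. Alternatives tried were other scalings, no read shift, subtracted background, other windows and calling libraries, a stricter site threshold, a wider local density and more reads per mismatch position. Computations used Python 3.11.15 with matplotlib 3.10.9, statsmodels 0.14.6, pandas 2.3.3, scipy 1.17.1 and numpy 2.4.6.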

Additional observations from a re-analysis of the deposited data

How the results depend on the processing

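Of 51 alternatives computed, 44 kept the value within its 95% interval (a count within 1.5 times) and 7 moved it. By library totals, the log2 ratio was 0.47 at the Stat5a start and 0.19 at the Stat3 start, and by reads outside regions it was 0.49 at the Stat5a start and 0.22 at the Stat3 start. Library totals also raised the count of marked regions past the size rule to 373, against 238. That split was 319 higher and 54 lower, against 111 and 127. Scaling by marked regions moved the log2 ratio of the Stat3 body to -0.51, against -0.16. A Poisson p under 1e-12 left 8 phospho-STAT3 sites, against 14, while no shift gave 13 and a 50 kb local density 15. All 14 sites were kept when sites also called in both H3K4me3 libraries were left out, an alternative chosen after seeing the data. None of the 14 was called in either of these libraries, so this alternative, counted among the 44, could not remove any. The Stat3 start was also 0.08 in a fixed 2 kb and 0.00 when STAT3-deficient reads alone set the regions, so its direction depends on the setting. The region inside Stat3 was -1.04 without the shift. It was not called on either library alone, and the shortest Stat5b region was not called on the STAT3-deficient library. With at least 5 reads per mismatch position, none was left in the window. The weakest regions could show only large differences at this depth. No paired analysis was possible because each group had 1 library.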
